A study of Mus musculus with 8 samples.

Results

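The genes described here are 10 genes of cytotoxic lymphocytes and natural killer (NK) cells: Prf1, Gzma, Gzmb, Gzmk, Nkg7, Ctsw, Ncr1, Klrd1, Klrk1 and Eomes. They were taken from a list by gene symbol, out of 19752 genes with a value, each through the brightest probe set that carries its symbol alone. All 10 had a probe set. All 10 also passed the filter on dim genes, which left 14814 genes tested. The arrays hold RNA of the whole tibialis anterior, a muscle of the lower leg, from male C57BL/6 mice given as 99 weeks old in the labels and as 22 months in the design text. Every muscle had been cryo-injured by an 8 s touch of a metal probe chilled in liquid nitrogen and was taken at day 8. The rIL-33 group, 4 arrays, received 2 µg of recombinant interleukin-33 into the peritoneal cavity on the day before and the day after injury, and the other 4 arrays carry the treatment label PBS. Each group holds 2 arrays with C57BL/6 as their genetic background label (replicates 1 and 2) and 2 with WT (replicates 3 and 4). The sources used here do not say what separates those labels. No array of uninjured or young muscle was analysed here. No label says that the arrays of a group come from separate mice. The p-values therefore measure only a spread between arrays that may be technical.

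Cytotoxic T cells and NK cells kill target cells by releasing granules at the point of contact. Perforin opens the target's membrane and granzymes, a family of serine proteases, enter and start cell death. Receptors on the killer cell decide whether the granules are released, and the T-box transcription factors Eomes and T-bet keep the programme of these cells in place. Such cells are a minor population in injured muscle, among the many leukocytes that enter it. Interleukin-33 is an alarmin released from damaged tissue, best known for acting on type 2 innate lymphoid cells, regulatory T cells and mast cells.

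The sequences before the transcription start of 5 of these genes are shown because their products cover the roles compared below, an effector granule protein (Nkg7), granzymes (Gzmk, Gzmb) and activating receptors (Ncr1, Klrk1). The sequences come from RefSeq on build GRCm38.p6 and run 5′ to 3′ along the gene's strand towards its start. Bases inside any annotated gene were left out. For Klrk1 these were bases next to the start, inside the annotation of Klrk1 itself, so 211 of 250 bases are printed. No base was left to print for Gzma and Eomes. The table held 8 of the 10 genes, and Klrd1 and Ctsw had no entry. Capitals mark a T-box motif (GGTGTGA or its reverse complement TCACACC) or a Runx motif (TGTGGT or ACCACA), searched on both strands in the 250 bases before the start. The motifs do not overlap each other in these sequences.
Nkg7 chr7:43436888-43437137 (+ strand): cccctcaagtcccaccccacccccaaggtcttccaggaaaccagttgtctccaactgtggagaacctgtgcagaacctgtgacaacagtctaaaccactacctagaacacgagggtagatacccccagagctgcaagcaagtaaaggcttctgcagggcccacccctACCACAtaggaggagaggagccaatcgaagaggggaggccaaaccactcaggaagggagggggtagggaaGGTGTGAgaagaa
Gzmk chr13:113180966-113181215 (- strand): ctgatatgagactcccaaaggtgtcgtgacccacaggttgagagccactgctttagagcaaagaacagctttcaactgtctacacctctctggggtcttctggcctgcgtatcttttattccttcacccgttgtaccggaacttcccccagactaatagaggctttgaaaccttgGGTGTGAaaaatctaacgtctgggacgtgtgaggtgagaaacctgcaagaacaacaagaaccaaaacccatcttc
Gzmb chr14:56262335-56262584 (- strand): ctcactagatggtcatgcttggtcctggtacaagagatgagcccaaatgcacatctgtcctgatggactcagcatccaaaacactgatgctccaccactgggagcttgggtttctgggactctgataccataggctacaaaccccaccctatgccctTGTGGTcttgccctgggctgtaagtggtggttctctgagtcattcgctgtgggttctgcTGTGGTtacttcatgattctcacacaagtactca
Ncr1 chr7:4337465-4337714 (+ strand): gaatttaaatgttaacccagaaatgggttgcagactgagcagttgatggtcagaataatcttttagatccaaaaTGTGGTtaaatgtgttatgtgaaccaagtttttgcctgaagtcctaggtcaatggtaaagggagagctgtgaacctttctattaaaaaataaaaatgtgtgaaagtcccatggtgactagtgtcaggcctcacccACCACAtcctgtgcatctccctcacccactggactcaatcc
Klrk1 chr6:129623904-129624114 (- strand): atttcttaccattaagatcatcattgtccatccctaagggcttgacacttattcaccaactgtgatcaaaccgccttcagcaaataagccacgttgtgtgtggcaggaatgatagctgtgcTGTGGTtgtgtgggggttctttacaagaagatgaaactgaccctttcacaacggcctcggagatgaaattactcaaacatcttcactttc
The T-box motif stood in 2 of the 8 regions, those of Nkg7 and Gzmk, and in 3.31% of 27025 mouse promoters of the same length. The Runx motif stood in 6 of the 8, those of Prf1, Gzma, Gzmb, Nkg7, Ncr1 and Klrk1, and in 14.2% of all promoters. These motifs were chosen after the sequences had been seen, and a match describes letters and not a bound site. In the same annotation Klrd1 and Klrk1 are direct neighbours on chromosome 6, and Gzma and Gzmk lie on chromosome 13 with 1 annotated gene between them.

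The arrays were alike in median intensity, between 222.6 and 232.2, but not in the shape of their distributions. Lower quartiles ran from 88.3 (PBS replicate 1) to 93.8 on C57BL/6-labelled arrays. On WT-labelled arrays they ran from 97.1 to 107.3 (PBS replicate 3). The upper quartile was highest on PBS replicate 1 (590.4) and lowest on PBS replicate 3 (511.6). Genes of muscle fibres were bright on all arrays, the mean of 8 such genes lying between 13.64 and 13.73 (log2 intensity) in rIL-33 muscles and between 13.58 and 13.68 in PBS muscles. Values below are log2 intensities, differences are rIL-33 minus PBS, SE is their standard error in limma, and a gene was called at a Benjamini-Hochberg adjusted p under 0.05 over all genes tested. The cut-off for dim genes was 6.65. The mean of Eomes, Ncr1, Klrd1 and Klrk1 in rIL-33 muscles lay under it, so these 4 entered the test through their PBS arrays, and their number is no support for a difference. In whole muscle, fewer cells of a type and less RNA per cell cannot be told apart.

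No gene of the 10 passed the threshold over all arrays, and 9 of the 10 had a difference below 0 (52% of all genes did). The median difference of the 10 was -0.40, and that of all genes tested was -0.01. For the 6 granule genes (Prf1, Gzma, Gzmb, Gzmk, Nkg7 and Ctsw), whose rIL-33 means lay above the dim cut-off, the median was -0.31. Called lower over all arrays were 0% of the genes tested, and called higher 0.00675%. At an unadjusted limma p under 0.05, 4 of the 10 were lower (Eomes, Gzmk, Ctsw and Klrd1), as were 5.24% of all genes, and 0 of the 10 were higher, against 4.39%. Among these 4, Eomes and Klrd1 entered the test through their PBS arrays. That count of 4 was 1 without PBS replicate 1 (3.76% of all genes lower at that p) or PBS replicate 4 (2.83%), 2 without rIL-33 replicate 1 (2.48%) and 8 without PBS replicate 3 (6.33%). The rIL-33 and PBS arrays overlapped in every one of the 10, whereas 2.13% of all genes had every rIL-33 array below every PBS array and 2.44% the reverse. PBS replicate 1 was the highest array for 8 of the 10 genes and rIL-33 replicate 1 the lowest for 9. With both of these arrays left out, a choice made after the values were seen, the median difference was -0.17 and 0 of the 10 genes had an unadjusted p under 0.05 (1.59% of all genes were lower at that p).

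Nkg7 encodes a membrane protein of cytotoxic granules that promotes their release. It stood at 7.60, 8.15, 8.59 and 8.65 in rIL-33 replicates 1 to 4, against 10.02, 8.55, 8.17 and 9.45 in PBS replicates 1 to 4. PBS replicates 1 and 4 lay above every rIL-33 array, and PBS replicates 2 and 3 lay among them. The means were 8.25 ± 0.48 in rIL-33 and 9.05 ± 0.84 in PBS muscles (SD, n = 4 each), a difference of -0.80 (SE 0.38, limma adjusted p = 0.523), or 1.74-fold higher intensity in PBS muscles. This was the largest difference of the 10, and also the one with the widest range over the arrays, 2.43. Without PBS replicate 1 it was -0.47.

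Among the granzyme genes, Gzmk differed most. Granzyme K is a trypsin-like protease found in CD8 T cells and some NK cells. Its gene stood at 6.67, 7.19, 7.42 and 7.20 in rIL-33 replicates 1 to 4 and at 8.40, 7.04, 7.74 and 8.21 in PBS replicates 1 to 4. Of the PBS arrays only replicate 2 lay inside the rIL-33 range, and the other 3 lay above it. The means were 7.12 ± 0.32 and 7.85 ± 0.60 (rIL-33 and PBS, SD, n = 4 each), a difference of -0.73 (SE 0.27, limma adjusted p = 0.489).

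Its chromosomal neighbour Gzma, which encodes the trypsin-like granzyme A of NK cells and CD8 T cells, did not share this pattern. The levels were 6.86, 7.28, 7.74 and 7.99 in rIL-33 replicates 1 to 4, against 7.44, 7.88, 7.17 and 7.34 in PBS replicates 1 to 4. The PBS arrays lay wholly inside the rIL-33 range. Over all arrays the difference was 0.02 (SE 0.23), with a 95% interval from -0.50 to 0.53 (limma adjusted p = 0.991). The rIL-33 arrays of the WT label were the high ones and those of the C57BL/6 label the low ones.

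Granzyme B, encoded by Gzmb, cleaves after aspartate and activates caspases. Gzmb stood at 6.65, 6.58, 6.76 and 6.99 in rIL-33 replicates 1 to 4 and at 7.55, 6.74, 6.25 and 7.28 in PBS replicates 1 to 4. The PBS arrays spread above and below the rIL-33 ones, and the difference was -0.21 (SE 0.24, limma adjusted p = 0.823). Prf1, the gene of perforin, varied least, by 0.36 between its highest and lowest array. It stood at 7.38, 7.50, 7.61 and 7.64 with rIL-33 and at 7.58, 7.74, 7.70 and 7.56 with PBS, which overlap. The difference of Prf1 was -0.11 (SE 0.08, limma adjusted p = 0.675), with a 95% interval from -0.29 to 0.07.

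Ctsw encodes cathepsin W, a protease of the papain family made by NK cells and cytotoxic T cells. Its levels were 6.48, 7.16, 7.15 and 7.26 in rIL-33 replicates 1 to 4, against 7.62, 7.39, 7.25 and 7.43 in PBS replicates 1 to 4. The groups all but separated, PBS replicate 3 and rIL-33 replicate 4 alone overlapping, while rIL-33 replicate 1 lay far below the rest. The difference was -0.41 (SE 0.16, limma adjusted p = 0.489), and -0.23 without rIL-33 replicate 1.

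**Figure D1:**
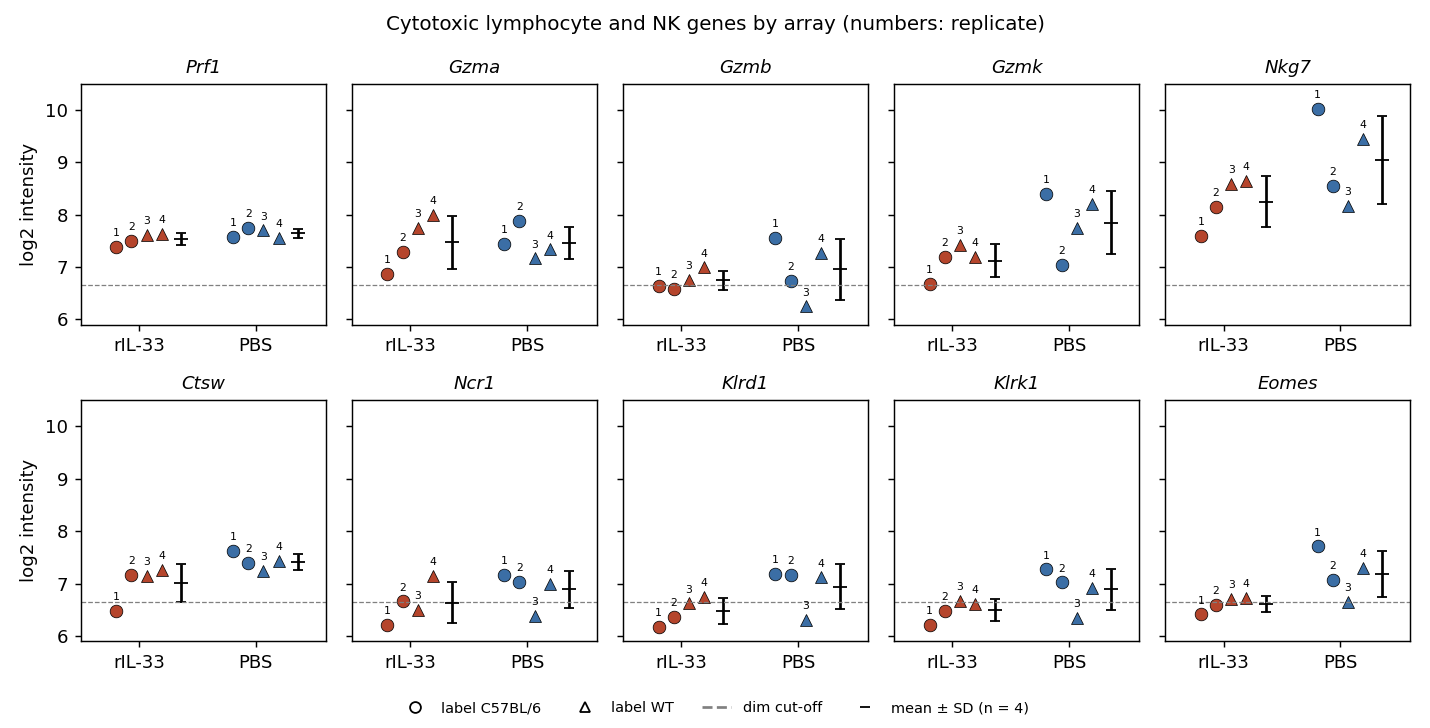
Log2 intensity of each of the 10 genes on every array, rIL-33 in red and PBS in blue, with circles for the C57BL/6 label, triangles for the WT label and the replicate number beside each point. Bars are means ± SD (n = 4) and the dashed line is the dim cut-off of 6.65. PBS replicate 1 is the highest array in 8 panels and rIL-33 replicate 1 the lowest in 9, and the groups overlap in all 10.

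The receptor genes and Eomes had a common shape: PBS replicates 1, 2 and 4 were high, and PBS replicate 3 stood with the rIL-33 arrays. Klrk1 encodes NKG2D, which recognises stress-induced ligands. It stood at 6.22, 6.48, 6.68 and 6.61 in rIL-33 replicates 1 to 4 and at 7.27, 7.02, 6.35 and 6.92 in PBS replicates 1 to 4. All rIL-33 arrays lay below PBS replicates 1, 2 and 4. The difference of Klrk1 was -0.39 (SE 0.18, limma adjusted p = 0.517).

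Klrd1 encodes CD94, the partner of the NKG2 receptors that recognise the non-classical MHC molecule Qa-1. Its levels were 6.18, 6.37, 6.62 and 6.74 with rIL-33 and 7.18, 7.17, 6.31 and 7.12 with PBS, in the order of replicates 1 to 4. PBS replicate 3 again lay inside the rIL-33 range, well below the other PBS arrays. The difference was -0.47 (SE 0.20, limma adjusted p = 0.509).

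Ncr1 encodes NKp46, an activating receptor of NK cells and some innate lymphoid cells. Here rIL-33 replicate 4 was high too, at 7.15, against 6.22, 6.66 and 6.50 in rIL-33 replicates 1 to 3, while PBS replicates 1 to 4 stood at 7.16, 7.03, 6.38 and 6.99. The groups overlapped broadly, with a difference of -0.26 (SE 0.21, limma adjusted p = 0.715).

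Eomes had the smallest unadjusted p of the 10. It stood at 6.41, 6.60, 6.70 and 6.73 in rIL-33 replicates 1 to 4, against 7.71, 7.08, 6.66 and 7.30 in PBS replicates 1 to 4. PBS replicate 3 was the 1 PBS array inside the rIL-33 range. The means were 6.61 ± 0.15 in rIL-33 and 7.19 ± 0.44 in PBS muscles (SD, n = 4 each), a difference of -0.57 (SE 0.19, limma adjusted p = 0.489). An exact two-sided permutation test over the 70 assignments of the arrays gave p = 0.0857 for Eomes, and between 0.0571 (Ctsw) and 0.971 (Gzma) over the 10, where the smallest possible p is 0.0286.

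The treatments were also compared within each label. Within the C57BL/6 label all 10 genes were lower in rIL-33 than in PBS muscles (54.7% of all genes were), by a median of -0.73, whereas within the WT label 6 of the 10 were lower (49.5% of all genes) and the median was -0.02. The medians of all genes tested were -0.01 within C57BL/6 and 0.00 within WT. Those of the 6 granule genes were -0.63 within C57BL/6 and -0.07 within WT. No gene of the 10 passed the threshold within either label. Within C57BL/6 0% of the genes tested were called in either direction, and within WT 0.00675% were called lower and 0.0405% higher. These values come from 2 arrays against 2 per label, with the spread taken from all 8 arrays.

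Within C57BL/6, 7 of the 10 were lower at an unadjusted limma p under 0.05, against 2.57% of all genes, and 0 were higher, against 2.06%. The groups did not overlap in 9 of the 10, Gzmk being the exception, and did not overlap in that direction in 19% of all genes. In the other direction 0 of the 10 and 14% of all genes did not overlap. Ncr1, Klrd1, Klrk1 and Eomes entered the test through their PBS arrays, so their part in these counts is no support for a difference. The largest differences were those of Nkg7 (-1.41, SE 0.49), Klrd1 (-0.90, SE 0.21), Eomes (-0.89, SE 0.23) and Klrk1 (-0.80, SE 0.18), with limma adjusted p between 0.894 and 0.947. On the intensity scale PBS muscles stood 2.66-fold above rIL-33 muscles for Nkg7, 1.87-fold for Klrd1, 1.85-fold for Eomes and 1.74-fold for Klrk1. The count of 7 was 4 without rIL-33 replicate 1 (1.02% of all genes lower at that p) and 5 without PBS replicate 1 (1.05%). Without PBS replicate 1 the difference of Nkg7 was -0.67, that of Eomes -0.57, that of Gzmb -0.13 (-0.53 with it) and that of Gzmk -0.11 (-0.79 with it). Without PBS replicate 2 these were -2.15 for Nkg7, -0.94 for Gzmb and -1.47 for Gzmk. Without rIL-33 replicate 1, Ctsw differed by -0.34 (-0.68 with it), Gzma by -0.37 (-0.58 with it) and Ncr1 by -0.44 (-0.66 with it), and without PBS replicate 2 Gzma differed by -0.36.

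Within WT the 2 PBS arrays disagreed, PBS replicate 4 being high and PBS replicate 3 low in most of the 10 genes. The mean of both WT-labelled rIL-33 arrays lay above PBS replicate 3 in 7 of the 10 genes and below PBS replicate 4 in 8 of them. For Klrd1 the differences from PBS replicates 3 and 4 were 0.37 and -0.44, and for Nkg7 they were 0.45 and -0.83. Leaving out PBS replicate 3 put the WT median of the 10 at -0.34, and leaving out PBS replicate 4 put it at 0.33. Gzmk differed by -0.67 within WT (SE 0.37, limma adjusted p = 0.476), with both rIL-33 arrays below both PBS arrays (18.6% of all genes), and by -0.44 without PBS replicate 4. Gzma lay on the other side of 0, with a difference of 0.62 (SE 0.18, limma adjusted p = 0.402), with both rIL-33 arrays above both PBS arrays (27% of all genes). Gzma was the 1 gene of the 10 higher at an unadjusted p under 0.05 within WT (8.01% of all genes were), and 0 were lower (4.29%).

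The difference between the labels was tested directly, as the effect within C57BL/6 minus that within WT. No gene of the 10 passed the threshold, and 0% of all genes did in either direction. All 10 values were below 0, with a median of -0.72, where the median of all genes tested was -0.02. The median of the 6 granule genes was -0.60. At an unadjusted limma p under 0.05, 3 of the 10 had a more negative effect within C57BL/6, against 2.09% of all genes, and 0 a more positive one, against 1.11%. These were Gzma (-1.20, SE 0.26), Klrk1 (-0.81, SE 0.26) and Klrd1 (-0.87, SE 0.30), with a limma adjusted p of 0.999 for each. Of them, Klrk1 and Klrd1 entered the test through their PBS arrays. The count of 3 was 7 without PBS replicate 2 (2% of all genes) or PBS replicate 4 (3.8%), 5 without rIL-33 replicate 2 (1.22%) and 2 without rIL-33 replicate 1 (3.95%). For Gzmk the value was -0.12 (SE 0.53), with a 95% interval from -1.31 to 1.08, and its sign changed when rIL-33 replicate 1, PBS replicate 1 or PBS replicate 3 was left out. Averaged over the treatments, 0 of the 10 differed between C57BL/6-labelled and WT-labelled arrays past the threshold, at which 1.95% of all genes were lower and 4.9% higher. At an unadjusted p under 0.05 it was again 0 of the 10, against 14.4% lower and 17.3% higher.

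**Figure D2:**
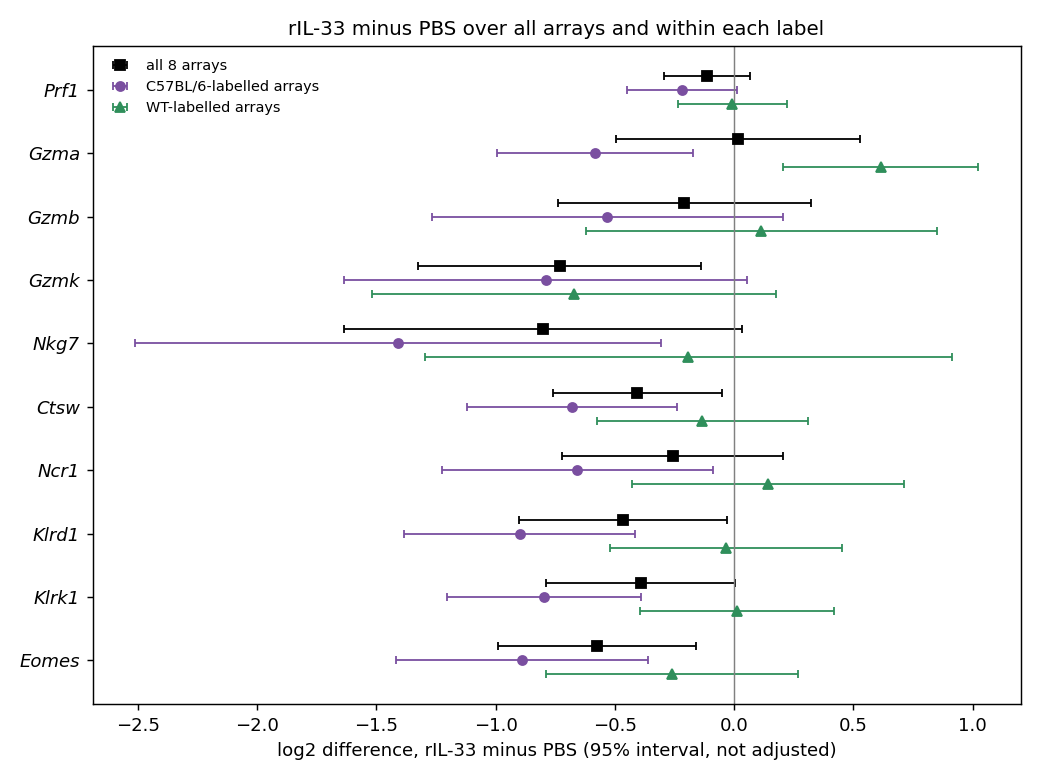
Log2 difference, rIL-33 minus PBS, of the 10 genes with 95% intervals not adjusted for multiple testing, over all 8 arrays (black squares), the C57BL/6-labelled arrays (purple circles) and the WT-labelled arrays (green triangles). All 10 values within C57BL/6 lie below 0, the WT values lie between -0.67 and 0.62, and Gzma lies on opposite sides of 0 in the 2 labels.

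Further genes of the cytotoxic programme came from lists by function, and none of them passed the threshold for rIL-33 against PBS, over all arrays or within a label. Of 7 other granzyme genes 6 were dim, and Gzmm, granzyme M, differed by -0.02 (SE 0.10). Genes of granule maturation, storage and release had a median of -0.12, with 10 of 12 tested below 0. Among them Cst7, cystatin F, an inhibitor of granule cathepsins, differed by -0.31 (SE 0.12) and Srgn, serglycin, the proteoglycan that packs granules, by -0.29 (SE 0.18). For these 2 genes the limma adjusted p was 0.489 and 0.605. Srgn was bright, with a mean of 12.00 over all arrays. It differed by -0.05 within C57BL/6 and by -0.53 within WT, where PBS replicate 4 stood at 12.75. Death ligands and secreted products had a median of -0.18, with 5 of 6 tested below 0.

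Ccl5, a chemokine stored by memory CD8 T cells and NK cells, stood at 8.61, 8.96, 9.06 and 9.35 in rIL-33 replicates 1 to 4, against 10.71, 9.67, 9.32 and 9.91 in PBS replicates 1 to 4. Only rIL-33 replicate 4 and PBS replicate 3 overlapped, and the difference was -0.91 (SE 0.26, limma adjusted p = 0.489). Ccl3, a chemokine also made by macrophages, differed by -0.73 (SE 0.32, limma adjusted p = 0.512), but by -0.28 within C57BL/6 and -1.18 within WT.

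Of the other NK receptors and adaptors, 31 had a value, 15 were tested and 12 of those were below 0, with a median of -0.21. Klrb1b, an inhibitory lectin-like receptor of the NKR-P1 family, stood at 7.04, 7.37, 7.49 and 7.61 in rIL-33 replicates 1 to 4 and at 8.15, 7.96, 7.78 and 8.32 in PBS replicates 1 to 4. Its groups did not overlap, and its difference was -0.68 (SE 0.14, limma adjusted p = 0.489). Klrb1b differed by -0.85 within C57BL/6 and by -0.50 within WT, and these values were not tested against those of the receptors among the 10. Klrg1, an inhibitory receptor of effector lymphocytes that is also found on type 2 innate lymphoid cells, lay on the other side of 0. It stood at 7.33, 6.90, 7.12 and 7.15 in rIL-33 replicates 1 to 4, against 6.62, 6.70, 6.28 and 6.49 in PBS replicates 1 to 4, without overlap. The difference of Klrg1 was 0.60 (SE 0.11, limma adjusted p = 0.489), with 0.45 within C57BL/6 and 0.75 within WT. Klrb1c, the gene of NK1.1, was dim. Klra3, a receptor of the Ly49 family, whose members are close copies and may share probes, differed by -0.12 (SE 0.31) between the treatments. It was higher on C57BL/6-labelled than on WT-labelled arrays by 0.69 (SE 0.17, limma adjusted p = 0.0452). The arrays of the labels overlapped, at 6.64 to 7.82 (C57BL/6) and 6.31 to 7.02 (WT). How many genes were called between the labels varied with the settings, as given below.

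Ligands of these receptors were measured as well, 5 of them tested, with a median of -0.09. H60b, a ligand of NKG2D, was 0.77 higher on C57BL/6-labelled than on WT-labelled arrays (SE 0.07, limma adjusted p = 0.00834) and differed by 0.10 (SE 0.26) between rIL-33 and PBS. Cd48, the ligand of the receptor CD244, differed by -0.30 (SE 0.17, limma adjusted p = 0.593). Regulators and cytokine receptors of cytotoxic cells had a median of -0.14, with 13 of 17 below 0. Cx3cr1, the fractalkine receptor of effector lymphocytes and also of monocytes and macrophages, differed by -0.38 (SE 0.07, limma adjusted p = 0.489), without overlap.

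Il2rb, the receptor chain through which NK and CD8 T cells receive interleukin-15, followed the 10 genes most closely. It stood at 6.98, 7.60, 7.91 and 8.15 in rIL-33 replicates 1 to 4, against 8.52, 8.02, 7.58 and 8.22 in PBS replicates 1 to 4. As in most of the 10, rIL-33 replicate 1 was lowest, PBS replicate 1 highest and PBS replicate 3 low for its group. Il2rb differed by -0.98 within C57BL/6 and by 0.13 within WT, and its pooled adjusted p in limma was 0.598. Likeness was measured as Pearson's r over the 8 arrays between a gene and the mean of the 10 genes, each centred on its own mean. After Il2rb (0.972) came Zfp688 (0.969), Rab27a (0.962), Septin6 (0.961), Sft2d2 (0.960), Chst15 (0.959), Fut4 (0.959), Xxylt1 (0.952), Sik1 (0.951) and Stat4 (0.951). Rab27a encodes a small GTPase that docks lytic granules at the membrane, and Stat4 the transcription factor that interleukin-12 activates in NK and T cells. These coefficients are the highest of all genes tested, over 8 arrays that share 1 normalization, and are given as a description.

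**Figure D3:**
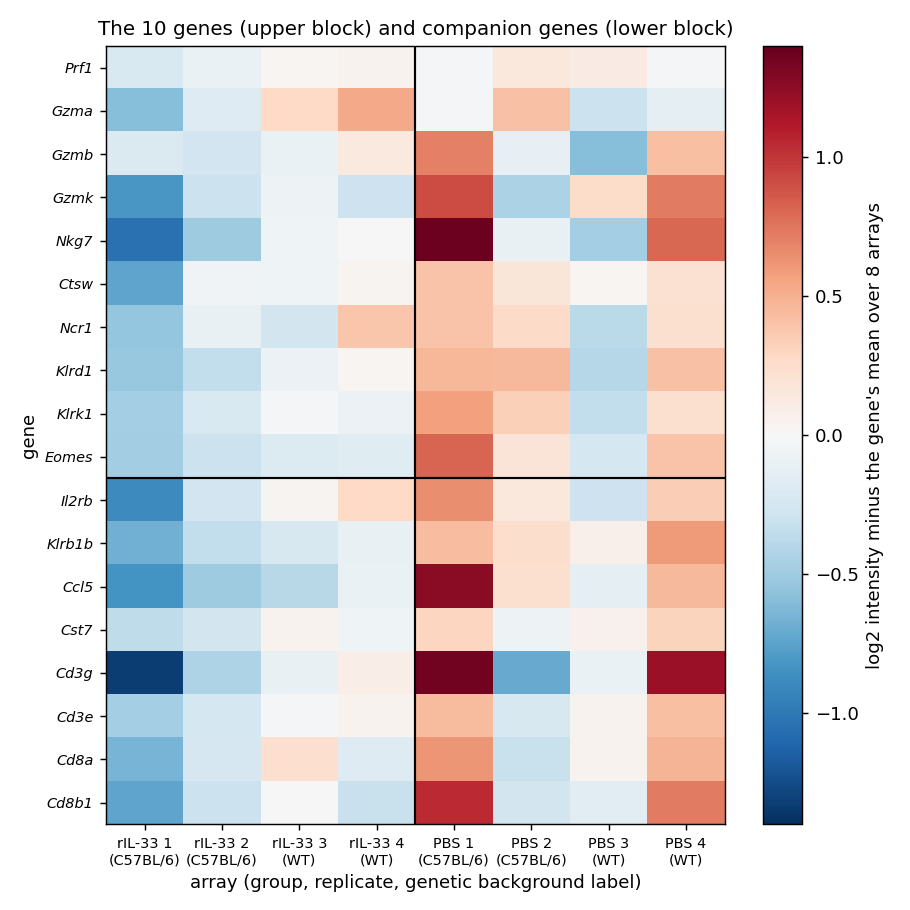
Log2 intensity minus each gene's mean over the 8 arrays, with rIL-33 arrays in the left 4 columns and PBS arrays in the right 4, for the 10 genes (upper block) and 8 companion genes (lower block). PBS replicates 1 and 4 are high in most rows, rIL-33 replicate 1 is low in nearly all, and PBS replicate 2 is high for Klrd1 and Klrk1 but low for Gzmk, Cd3g and Cd8b1.

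Markers of T cells were also measured, and 0 of them passed the threshold over all arrays or within a label. All 12 T cell markers tested, of 13 with a value, were below 0 over all arrays, as were 52% of all genes. Their median was -0.32 over all arrays, -0.42 within C57BL/6 and -0.17 within WT. Over all arrays 4 of the 12 were lower at an unadjusted p under 0.05, against 5.24% of all genes. The mean level of these markers was 7.19, 7.42, 7.56 and 7.62 in rIL-33 replicates 1 to 4 and 8.07, 7.44, 7.66 and 8.02 in PBS replicates 1 to 4. Cd8b1, a chain of the CD8 co-receptor, stood at 6.70, 7.13, 7.43 and 7.13 with rIL-33 and at 8.48, 7.18, 7.29 and 8.16 with PBS, in replicate order. Cd8b1 and the T cell receptor gene Cd3g were thus high in PBS replicates 1 and 4, the arrays on which Gzmk and Nkg7 were high. The 3 receptor genes and Eomes were high there too, on average 0.56 and 0.31 above their own means. On PBS replicate 3 Gzmk (7.74) lay above every rIL-33 array, whereas Cd8b1 (7.29) did not. On PBS replicate 2 the 3 receptor genes and Eomes were on average 0.31 above their own means, whereas Gzmk and Nkg7 averaged -0.27 from theirs. The other granule genes did not all follow Gzmk and Nkg7. On that array Gzma, Ctsw and Prf1 stood above their means (7.88, 7.39 and 7.74, against 7.46, 7.22 and 7.59). Gzmb stood below its mean (6.74 against 6.85). The part of T cells in the levels of the 10 genes was not tested.

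The lists of other cells differed in size and direction, and none of their genes passed the threshold for rIL-33 against PBS. Of all genes tested, 52% were below 0 over all arrays and 2.13% were lower without overlap. At an unadjusted p under 0.05, 5.24% of all genes were lower and 4.39% higher. Genes of fibro-adipogenic progenitors, the connective tissue cells of muscle, had a median of -0.36, with 7 of 7 below 0, 6 of them at an unadjusted p under 0.05 and 4 without overlap. Their mean level was 10.62 to 10.92 on rIL-33 arrays and 11.03 to 11.36 on PBS arrays, which do not overlap. Dendritic cell genes had a median of -0.34, with 5 of 7 below 0, 4 lower and 1 higher at that p, and a mean level of 7.61 to 7.79 in rIL-33 and 7.71 to 7.98 in PBS muscles. The median of the 10 genes over the same arrays was -0.40, and that of the 6 granule genes among them was -0.31. Endothelial genes had a median of -0.17, with 5 of 6 below 0 and 3 lower at that p. Type 2 innate lymphoid cell genes had a median of 0.34, with 6 of 7 tested above 0, and their mean level was 8.32 to 8.38 on rIL-33 arrays and 8.02 to 8.15 on PBS arrays. Regulatory T cell genes had a median of 0.01, with a mean level of 7.56 to 7.79 in rIL-33 and 7.54 to 7.64 in PBS muscles. For macrophage genes the median was -0.22, with 8 of 9 tested below 0, and the mean level was 9.55 to 9.94 in rIL-33 and 9.73 to 10.18 in PBS muscles. Mast cell genes had a median of -0.17, with 4 of 5 tested below 0, and B cell genes had -0.01 (3 tested). Within C57BL/6 and WT the medians were -0.20 and -0.002 for mast cell and -0.47 and -0.20 for dendritic cell genes. Fibro-adipogenic progenitor genes had -0.36 and -0.45. A larger difference within C57BL/6 was thus not particular to the 10 genes. The 4 neutrophil genes tested, of 10 with a value, had a high mean on PBS replicates 3 and 4, at 8.42 and 8.95. On the other PBS arrays and all rIL-33 arrays that mean lay between 7.07 and 7.35. Not all 4 were high on PBS replicate 3, where Ngp stood at 8.99 but Csf3r at 7.94, against 7.98 on PBS replicate 1. PBS replicate 3 was thus high for the mean of these neutrophil genes and low for the receptors and Eomes. Whether cell composition has a part in the differences of the 10 genes was not tested.

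**Figure D4:**
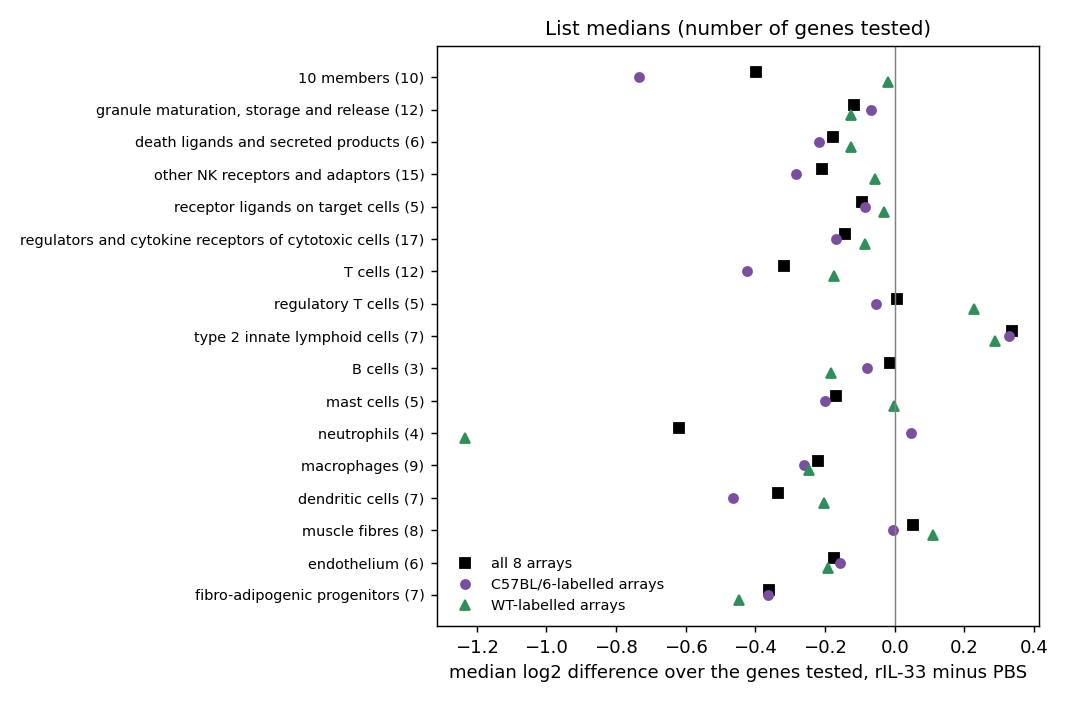
Median log2 difference, rIL-33 minus PBS, over the tested genes of each list with at least 3 (their number in brackets), over all 8 arrays (black squares), within the C57BL/6 label (purple circles) and within the WT label (green triangles). The 10 genes have medians of -0.40, -0.73 and -0.02, type 2 innate lymphoid cell genes lie above 0 in all 3 settings and neutrophil genes reach -1.23 within WT. Among the 10, Eomes, Ncr1, Klrd1 and Klrk1 entered the test through their PBS arrays.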

How the data were processed

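Per the submitters' processing notes, the authors made the intensities with RMA and Affymetrix Power Tools, whose versions the sources used here do not give. They cover 24922 probe sets on 8 Affymetrix Mouse Gene 1.0 ST arrays and are on a linear scale, as deposited by the authors. RMA corrects background, equalises the arrays' distributions and summarises probes, and differences of dim probe sets are compressed. The quartiles of the deposited values still differed between the arrays. The log2 was then taken here. Platform annotation gave 21425 probe sets 1 gene symbol and 1399 several, and left 2098 unlisted. Only those with 1 symbol were used, the brightest per gene. Dim genes, whose mean lay under the 25th percentile (6.65), were left out.

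Groups were tested in R 4.3.3 with limma 3.58.1 (lmFit, eBayes), on treatment alone for all arrays and on the means of the 4 treatment by label groups otherwise. P-values were adjusted by Benjamini-Hochberg over 14814 genes. The fits were tested on simulated data. The 10 genes are named whatever their values. Each list of cytotoxic genes adds those past the threshold in any comparison, filled up to 2 genes by largest pooled difference, and the 10 genes most alike in pattern follow. Klrg1, Klrb1c, Cd3g, Cd8b1, Cd3e and Cd8a lie outside that rule and were chosen after their values were seen. The members and lists were chosen with earlier results of these data known. The number of arrays limits the precision. Plots were made in Python 3.11.15 (matplotlib 3.10.9).

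Alternatives were quantile normalization, other filters on dim genes, eBayes with trend and robust, averaged probe sets per gene, a threshold of 0.1, label or replicate number as a block, each label alone, each array left out, and exact permutation.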

Additional observations from a re-analysis of the deposited data

Results flagged for a closer look

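In 3 of the 10 genes the effects of rIL-33 within C57BL/6 and within WT differed at a limma p under 0.05 before adjustment, and none passed the threshold after it. At that p 2.09% of all genes had a more negative effect within C57BL/6, as these 3 did, and 1.11% a more positive one. For Gzma the effect within C57BL/6 minus that within WT was -1.20, for Klrd1 -0.87 and for Klrk1 -0.81 (limma adjusted p = 0.999 for each). Without PBS replicate 3 the value was -0.46 for Klrd1 and -0.52 for Klrk1. Gzma had its 2 C57BL/6-labelled rIL-33 arrays below, and its 2 WT-labelled rIL-33 arrays above, both PBS arrays of the same label.

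In 2 of 20 groups of 4 arrays, 1 array lay far from the others by Dixon's criterion, which chance meets in about 1 of 20 groups. Ctsw was low on rIL-33 replicate 1, at 6.48. Klrd1 was low on PBS replicate 3, at 6.31, where the other 3 PBS arrays stood between 7.12 and 7.18.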

How the results depend on the processing

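None of the 10 genes passed the threshold in any comparison under any alternative run. Permutation p-values were not adjusted. Over the 36 assignments within the labels the smallest possible permutation p is 0.0556, so that test could not fall under 0.05. Their differences over all arrays, within each label and between the labels kept their sign in 523 recomputed values, permutation tests included, and changed it in 21, and the cause was not tested. Many of the 523 could not change sign. The permutation tests, eBayes settings, dim filters, blocks and fits of each label alone leave the difference as it was, and averaged probe sets did so too. Leaving out an array of the other label leaves a difference within a label unchanged. The sign changed with quantile normalization within WT for Prf1 (0.023) and Klrd1 (0.034), and besides these for Gzmb over all arrays (0.023) with both arrays numbered 1 left out. With single arrays left out, Gzma over all arrays ranged from -0.16 to 0.22 and Gzmk in the difference between labels from -0.80 to 0.56. Within WT the ranges were -0.076 to 0.061 for Prf1, -0.40 to 0.63 for Gzmb, -0.83 to 0.45 for Nkg7, -0.18 to 0.47 for Ncr1, -0.44 to 0.37 for Klrd1, -0.27 to 0.30 for Klrk1 and -0.58 to 0.062 for Eomes. The median of the 10 ranged from -0.52 to -0.26 over all arrays, -0.95 to -0.55 within C57BL/6, -0.34 to 0.33 within WT and -1.10 to -0.45 between the labels. After quantile normalization that median was -0.35 over all arrays, -0.67 within C57BL/6 and 0.03 within WT. With the stricter filter at the 50th percentile only Nkg7 was left, so no median was taken. Genes called over the whole array numbered 1 over all arrays, 1 to 2 with single arrays left out, and 0 both with the replicate block and without both arrays numbered 1. Within C57BL/6 they numbered 0, 0 to 1 with single arrays left out and 2 from that label alone. Within WT they numbered 7, 3 to 25 with single arrays left out and 4 from that label alone. For the difference between labels they numbered 0, and 0 to 8 with single arrays left out. Between the labels themselves they numbered 1015, 3027 at a threshold of 0.1, 278 after quantile normalization and 0 to 960 with single arrays left out. Arrays of the same replicate number did not deviate together in every pair (r of deviations from group means 0.44, -0.19, 0.43 and 0.54), so the numbers were not taken as pairs. Those values also carry the label, since each replicate number has the same label in both groups. For deviations from the means of treatment and label, r was -0.28 within C57BL/6 and 0.32 within WT. With the replicate block 4 of the 10 and 8.23% of all genes were lower at an unadjusted p under 0.05 over all arrays, against 4 of the 10 and 5.24% without it. Signal near background limits Gzmb, Ncr1, Klrd1, Klrk1, Eomes and Ctsw, each with at least 1 array under the cut-off.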
